A study of Mus musculus with 8 samples.

Results

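The genes described here are 10 that macrophages and microglia switch on when they meet endotoxin, the lipopolysaccharide of Gram-negative bacteria: Tnf, Il6, Il10, Il12b, Nos2, Saa3, Lcn2, Cd40, Cd14 and Marcksl1. They were found by their GENCODE symbols among the 55385 genes of the count table, and the question put to them was whether microglia given IgG look as if they had met endotoxin. All 10 were found. Of these, 6 had enough counts to be tested among 17537 genes, and Il6, Il10, Il12b and Nos2 did not.

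The study treated primary microglia of wild-type newborn mice with IgG at 10 µg/ml from DIV15 (day 15 in vitro) over 24 h and compared them with control cultures, with 4 cultures in each group. The labels call the control cultures untreated, whereas the methods state PBS. The cells came from pooled neocortex and hippocampus and were shaken off mixed glial cultures, and both groups share this origin and carry no transgene. Each control culture shares a date in its label with 1 IgG culture, which gave 4 pairs, and the labels do not say what the dates mark. No group in the series received endotoxin, so no value below sets IgG directly against endotoxin.

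Endotoxin is carried by LBP and CD14 to the receptor TLR4, which is bound to its partner MD-2 (Ly96). TLR4 signals through MyD88 to NF-κB, which drives Tnf, Il6, Il12b and other inflammatory genes, and through TRIF (Ticam1) to interferon β and the interferon-stimulated genes. In microglia this response is known for a rapid burst of cytokines, followed by slower products such as nitric oxide synthase and acute-phase proteins, and by feedback genes that end the burst.

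IgG raised 2 of the 10 genes by the criterion of the study (unadjusted p under 0.01 and a log2 fold change beyond 0.5 in either direction), and both encode secreted acute-phase proteins. Lcn2 rose 2.39-fold and Saa3 rose 1.70-fold in the comparison of groups. The cytokine Tnf was at 17.6 ± 2.05 CPM (counts per 1000000 counts of the scaled library, SD, n = 4) in control cultures and 18.9 ± 3.02 CPM (n = 4) with IgG. Il6, Il12b, Il10 and Nos2 had between 0 and 19 counts in any library. By the same criterion 0.582% of all genes tested were higher and 0.262% lower, and no member was lower.

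No gene of the 17537, and so no member, had an adjusted p under 0.05 in this test (edgeR quasi-likelihood, 0% of genes), while 1230 genes had an unadjusted p under 0.05. The likelihood ratio test of edgeR gave 43 such genes and DESeq2 gave 53, and Lcn2 was the only member among them by either tool. With the culture pairs as a block, the criterion was met by 1.48% of genes on the higher side and 0.342% on the lower side, and 0.393% of genes were higher at an adjusted p under 0.05. Lcn2 met the criterion with this block and Saa3 did not.

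Library totals lay between 21287816 and 23703216 counts, so the upper limit for a gene with no count, taken as 3 counts, was 0.124 to 0.147 CPM. The share of mitochondrial counts reached 4.85% in IgG culture 1 and 5.59% in IgG culture 3, and elsewhere it ranged from 1.97% to 2.41%. The 12 microglia markers summed to 6535 to 6971 CPM in control and 6805 to 7689 CPM in IgG cultures, as the label of microglia requires. Markers of the oligodendrocyte lineage were also present and summed to 1262 to 1894 CPM without and 1111 to 1791 CPM with IgG, and astrocyte markers at 157 to 175 and 141 to 166 CPM. The median log2 fold change of the 9 oligodendrocyte-lineage markers was -0.11, and 1 of them was higher with IgG. In these bulk samples, fewer cells of a type and less RNA per cell cannot be told apart.

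The promoter of Saa3, a member that rose, is shown beside those of Tnf and Il6, the classical cytokine targets of endotoxin. Each is taken from the 250 bases before the RefSeq start of the gene (GRCm38.p6), 5′ to 3′ on the strand of the gene, and 6 of the 10 members had an entry (Tnf, Il6, Il12b, Saa3, Lcn2 and Marcksl1). The RefSeq and GENCODE starts differ for Lcn2 and Saa3. The window of Lcn2 lies wholly inside the longer GENCODE gene and is not printed, and the last 24 bases of the Saa3 window lie inside its GENCODE gene and are left off. Capitals mark matches on either strand to 4 motifs of factors that act in this response: the NF-κB consensus, the C/EBP motif TTNNGNAA, the STAT motif TTCNNNGAA and an interferon response core, GAAANNGAA.
Saa3 (chr7:46715701-46715926, minus strand): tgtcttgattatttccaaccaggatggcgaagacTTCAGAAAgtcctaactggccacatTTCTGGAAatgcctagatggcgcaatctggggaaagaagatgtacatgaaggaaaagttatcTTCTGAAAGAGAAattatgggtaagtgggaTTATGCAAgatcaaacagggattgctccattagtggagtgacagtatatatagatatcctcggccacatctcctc
Tnf (chr17:35202008-35202257, minus strand): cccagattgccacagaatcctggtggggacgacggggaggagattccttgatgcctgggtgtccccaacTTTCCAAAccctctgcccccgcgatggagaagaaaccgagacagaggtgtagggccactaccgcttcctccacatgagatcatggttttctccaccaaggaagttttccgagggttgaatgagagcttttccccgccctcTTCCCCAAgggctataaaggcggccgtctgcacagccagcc
Il6 (chr5:30012864-30013113, plus strand): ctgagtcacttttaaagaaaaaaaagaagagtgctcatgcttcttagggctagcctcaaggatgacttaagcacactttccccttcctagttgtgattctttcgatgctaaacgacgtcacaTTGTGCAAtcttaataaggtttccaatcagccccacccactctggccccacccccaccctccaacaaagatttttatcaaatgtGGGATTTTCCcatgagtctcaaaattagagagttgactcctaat

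Over the full windows of the 6 promoters, only that of Il6 held the NF-κB consensus, beginning 44 bases before the RefSeq start, and 7.25% of 32851 mouse promoters of the same length held it. Saa3 held 4 C/EBP matches, which began 216, 191, 129 and 99 bases before the start. The third of these overlaps the interferon response core at 125 bases, and the capitals there form 1 run. Lcn2 held 1 C/EBP match at 216 bases, Il6 held 1 at 128 bases, and Tnf held 2 at 181 and 41 bases. A C/EBP match occurred in 36.8% of all promoters, the interferon response core in 7.13% and the STAT motif, which none of the 6 held, in 7.02%. A match describes the letters in this window and is not a binding site, and a window with no match says nothing about the factor.

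Cd14 and Cd40 are the surface receptors of the set. CD14 is the co-receptor that hands endotoxin to TLR4, and Cd14 (ENSMUSG00000051439) was the most abundant member. It was at 642, 567, 656 and 595 CPM in control cultures 1 to 4 and at 770, 629, 780 and 786 CPM in IgG cultures 1 to 4. IgG culture 2 lay below 2 of the control cultures, so the groups overlapped, but within every pair the IgG culture was higher. The means were 615 ± 41.2 and 741 ± 75.0 CPM (SD, n = 4 each). The log2 fold change was 0.27 (SE 0.10, edgeR adjusted p = 0.692), and with the block it was 0.27 (SE 0.09, adjusted p = 0.407). The 95% interval of the fold ran from 1.03 to 1.41, and the criterion was not met by either fit.

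CD40 is the costimulatory receptor through which T cells activate microglia, and it is induced by endotoxin and by interferon γ. Cd40 (ENSMUSG00000017652, chr2:165055627-165072948) was at 2.61, 1.85, 2.64 and 1.51 CPM in control cultures and at 3.42, 2.09, 3.34 and 2.41 CPM in IgG cultures. The groups overlapped, because cultures 1 and 3 were high and cultures 2 and 4 low in both groups, and the IgG culture was the higher in all 4 pairs. The log2 fold change was 0.38 (SE 0.25, adjusted p = 0.712 in edgeR) and 0.39 with the block (SE 0.18, adjusted p = 0.513). Leaving out 1 culture or pair gave 0.23 (without control culture 4) to 0.50, and 0.29 to 0.46 with the block. The interval of the fold without the block, 0.886 to 1.92, includes no change.

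The cytokines of the set are Tnf, Il6, Il12b and Il10. TNF is an early cytokine that microglia release after endotoxin. Tnf (ENSMUSG00000024401, chr17:35199381-35202007) was at 20.2, 16.5, 18.0 and 15.5 CPM in control cultures 1 to 4 and at 17.3, 21.0, 15.6 and 21.9 CPM in IgG cultures 1 to 4. IgG was lower in pairs 1 and 3 and higher in pairs 2 and 4, and the groups overlapped over nearly their whole range. The log2 fold change was 0.11 (SE 0.14, adjusted p = 0.825), with a 95% interval of -0.20 to 0.41. With the block it was 0.10 (SE 0.15, adjusted p = 0.816). A fold above 1.33 or below 0.872 lies outside the interval of the comparison of groups. Only 24 h was sampled, so these values do not show whether Tnf or another member changed earlier.

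IL-6 is the cytokine that drives the acute-phase response. Il6 (ENSMUSG00000025746, chr5:30013114-30019981) had 4, 4, 4 and 3 counts in control cultures and 2, 0, 4 and 3 counts in IgG cultures. No library held more than 4 counts, and IgG culture 2 had none, which allows up to 0.13 CPM. The sums were 15 counts in control and 9 in IgG cultures, a ratio of 0.602 relative to the raw library totals (95% counting interval 0.232 to 1.47). A two-sided exact permutation test of the CPM gave p = 0.257, where 0.0286 is the smallest p that 4 against 4 cultures allow. A change of Il6 within this interval was not detectable at this depth.

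IL-12B is the p40 subunit shared by IL-12 and IL-23. Il12b (ENSMUSG00000004296, chr11:44400063-44414033) had 15, 5, 8 and 6 counts in control cultures 1 to 4 and 17, 4, 15 and 8 in IgG cultures 1 to 4. The groups overlapped, and IgG was higher in 3 of 4 pairs. The ratio of the summed counts relative to the raw library totals was 1.30 (counting interval 0.811 to 2.09, exact permutation p = 0.343, two-sided). IL-12A, the other subunit of IL-12, had 3 counts over all libraries, and IL-23A, the other subunit of IL-23, had 10.

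IL-10 restrains the endotoxin response. Il10 (ENSMUSG00000016529, chr1:131019845-131024974) had 2, 2, 2 and 3 counts in control cultures and 8, 5, 5 and 2 in IgG cultures. IgG cultures 1 to 3 lay above all the controls and IgG culture 4 lay within them. The sums of 9 and 20 counts gave a ratio of 2.23 relative to the raw totals, with a counting interval of 0.970 to 5.56, and the two-sided exact permutation test of CPM gave p = 0.0571. The intervals of these low genes cover counting error only.

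Nos2 encodes the inducible nitric oxide synthase, a late product of the endotoxin response. Nos2 (ENSMUSG00000020826, chr11:78920787-78960254) had 14, 1, 6 and 6 counts in control cultures 1 to 4 and 19, 6, 9 and 2 in IgG cultures 1 to 4. The spread within each group was as wide as the distance between them, and culture 1 was the highest of both groups. The ratio on the same basis, from 27 and 36 counts, was 1.34 (counting interval 0.789 to 2.29), and the exact permutation p was 0.514 (two-sided).

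**Figure D1:**
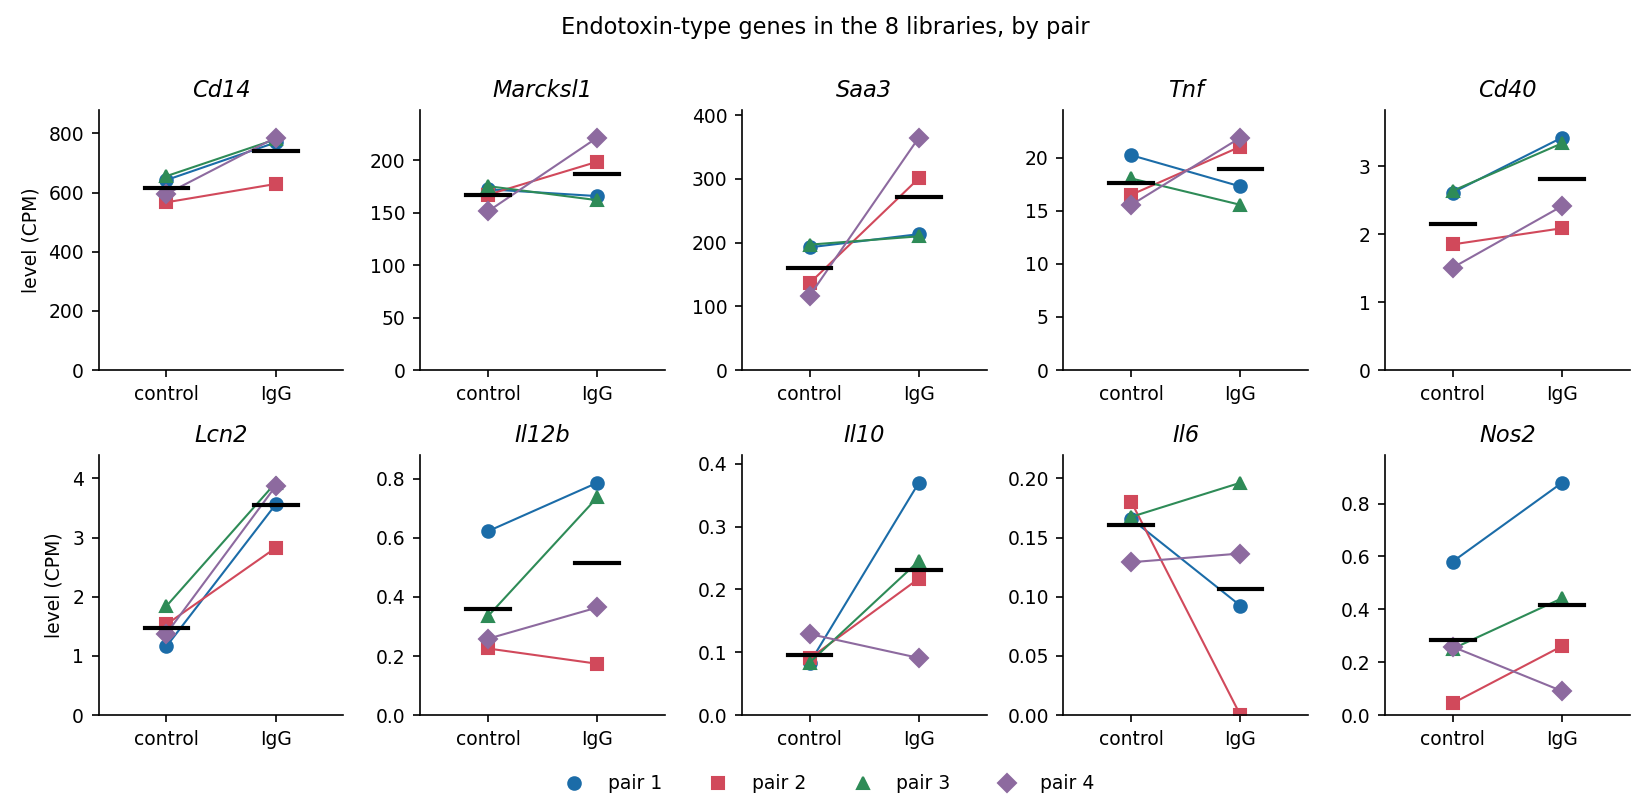
Level of each of the 10 genes in CPM (linear axes from 0, a scale of its own in each panel) in the 4 control and 4 IgG cultures, with a line joining the cultures of 1 pair and a black bar at each group mean. Lcn2 and Saa3 are the genes whose IgG cultures all lie above the control cultures, and Tnf and Marcksl1 cross between pairs.

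Saa3 and Lcn2 are the secreted acute-phase products. Serum amyloid A3 is the form of serum amyloid A made by macrophages. Saa3 (ENSMUSG00000040026, chr7:46711998-46715700) was at 192, 136, 197 and 116 CPM in control cultures 1 to 4 and at 213, 301, 210 and 365 CPM in IgG cultures 1 to 4. All IgG cultures lay above all control cultures, by a wide margin in pairs 2 and 4 and by a narrow one in pairs 1 and 3. The means were 160 ± 40.3 and 272 ± 74.7 CPM (SD, n = 4 each). The log2 fold change was 0.76 (SE 0.22, unadjusted p = 0.00625 and adjusted p = 0.692 in edgeR), and with the block it was 0.75 (SE 0.25, unadjusted p = 0.0168 and adjusted p = 0.397).

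The change of Saa3 within the pairs was 0.15, 1.14, 0.09 and 1.65 on the log2 scale. Without pair 4 the log2 fold change was 0.45 (edgeR adjusted p = 0.293), and scaling by library totals gave 0.68 with an unadjusted p of 0.0174, so either choice ended the call. Leaving out pair 2, control culture 2 or 4, or IgG culture 2 or 4 also ended it, with log2 fold changes of 0.64, 0.69, 0.62, 0.71 and 0.59. The near copies Saa1, Saa2 and Saa4 had at most 2 counts each over all libraries, and no annotated gene overlaps any of the 10 members.

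Lipocalin 2 binds bacterial siderophores and so withholds iron, and it is a marker of reactive glia after endotoxin. Lcn2 (ENSMUSG00000026822, chr2:32384633-32388252) was at 1.16, 1.53, 1.84 and 1.38 CPM in control cultures 1 to 4 and at 3.56, 2.83, 3.93 and 3.87 CPM in IgG cultures 1 to 4. The lowest IgG culture lay above the highest control culture. These levels are 28 to 44 counts per control library and 65 to 85 per IgG library, so Lcn2 was well above the filter in both groups. The means were 1.48 ± 0.286 and 3.55 ± 0.506 CPM (SD, n = 4 each).

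The log2 fold change of Lcn2 was 1.26 (SE 0.20, 95% interval 0.80 to 1.71, unadjusted p = 0.000103, edgeR adjusted p = 0.362). With the block it was 1.26 (SE 0.21, adjusted p = 0.0520). The changes within pairs were 1.55, 0.85, 1.06 and 1.43, and those of pairs 1 and 3 were not the smaller ones here. The adjusted p was 0.000120 by the likelihood ratio test of edgeR and 0.000261 by DESeq2. The criterion was met in each of the 30 alternatives tried.

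Neutrophils are rich in lipocalin 2, and 5 of 8 neutrophil markers were at 0 in all libraries (S100a9, Ly6g, Mpo, Elane and Retnlg). Only S100a8 had enough counts to be tested, at 1.04 CPM in control and 1.30 CPM with IgG. Its log2 fold change was 0.32 (SE 0.37, edgeR adjusted p = 0.809), and it was higher in 3 of 4 pairs. The neutrophil list summed to 0.622 to 1.67 CPM in control and 1.03 to 2.23 CPM in IgG cultures. Reactive astrocytes also make lipocalin 2, and of 8 astrocyte markers tested none was higher by the criterion in either fit. By it 0.582% of all genes were higher, and 1.48% with the block, so a count of 0 among 8 is near that share. The median log2 fold change of these markers was -0.13. Of 4 tested endothelial markers, with a median log2 fold change of 0.53, 1 was higher by the criterion with the block, beside 1.48% of all genes. This was Cdh5 (0.98, SE 0.24, edgeR adjusted p = 0.221), at 0.892 CPM in control and 1.76 CPM with IgG, while Pecam1 was at 0.518 and 1.02 CPM (1.03 with the block, SE 0.46, adjusted p = 0.499) and the defining marker Cldn5 was at 0 in all libraries. The list summed to 130 to 168 CPM without and 123 to 139 CPM with IgG, most of it Flt1 (139 and 122 CPM). Of 4 tested markers of border macrophages 1 was higher by the criterion with the block, beside 1.48% of all genes. This was Cbr2 (1.23, SE 0.30, edgeR adjusted p = 0.220), at 0.592 CPM in control and 1.31 CPM with IgG. The border macrophage list summed to 57.4 to 82.5 CPM without and 52.3 to 108 CPM with IgG. The part of any of these cell types in the rise of Lcn2 was not tested.

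MARCKSL1 is a substrate of protein kinase C at the plasma membrane whose transcript is raised in macrophages by endotoxin. Marcksl1 (ENSMUSG00000047945, chr4:129513581-129515985) was at 172, 167, 175 and 151 CPM in control cultures 1 to 4 and at 166, 198, 162 and 221 CPM in IgG cultures 1 to 4. It was lower with IgG in pairs 1 and 3 and higher in pairs 2 and 4, as was Tnf, and the groups overlapped. The log2 fold change was 0.17 (SE 0.11, adjusted p = 0.716 in edgeR), with an interval of the fold from 0.942 to 1.34, and 0.16 with the block (SE 0.12, adjusted p = 0.656). Leaving out 1 culture or pair without the block gave 0.016 to 0.26, with 0.076 without IgG culture 4 and 0.016 without pair 4.

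**Figure D2:**
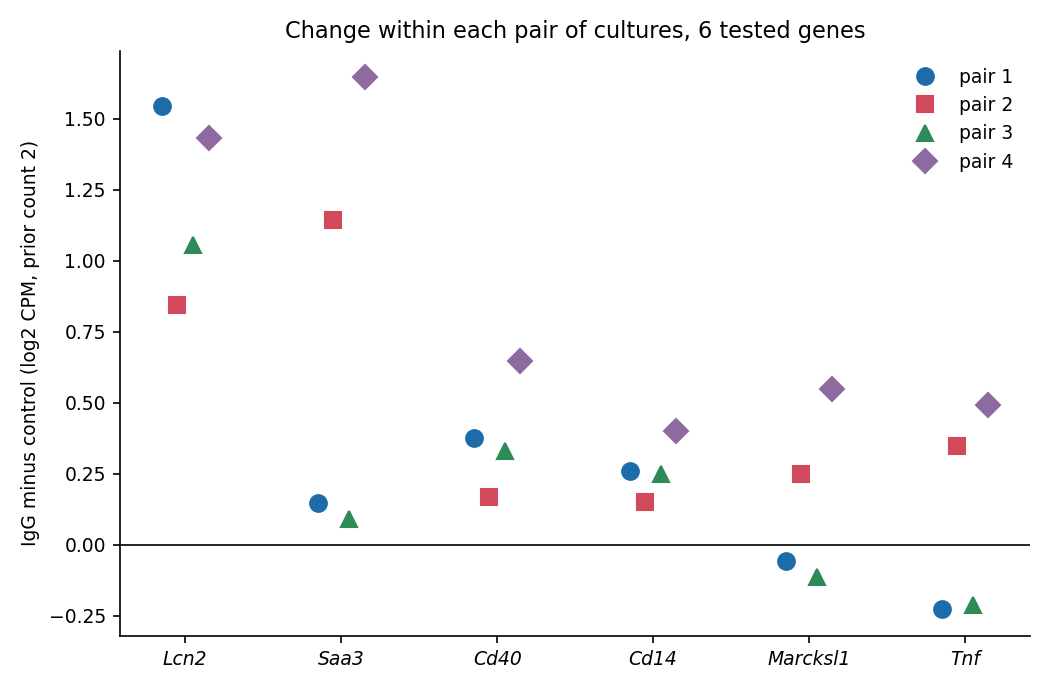
Difference of log2 CPM (prior count 2) between the IgG and the control culture of each of the 4 pairs, for the 6 tested genes. Lcn2 lies between 0.85 and 1.55 in all pairs, whereas Saa3, Marcksl1 and Tnf are near or below 0 in pairs 1 and 3 and higher in pairs 2 and 4.

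For 3 of the members the pairs were divided into 2 kinds by these same changes. In pairs 2 and 4 alone, fitted with the block, the log2 fold changes were 1.40 for Saa3, 0.42 for Tnf, 0.40 for Marcksl1 and 1.19 for Lcn2. In pairs 1 and 3 alone they were 0.10 for Saa3, -0.24 for Tnf, -0.10 for Marcksl1 and 1.31 for Lcn2. This division was made after the values were seen, so these fits restate it. The difference between the 2 kinds of pair was not tested.

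IgG cultures 1 and 3 are also those with the high mitochondrial shares of 4.85% and 5.59%. Within-pair changes of single genes were related to GC content by Spearman correlations of -0.44, -0.03, -0.44 and 0.35 in pairs 1 to 4, across 15639 genes that share their libraries. The part of the mitochondrial share in the results for Tnf, Saa3 and Marcksl1, and in those of the gene lists below, was not tested. With offsets for length and GC content in addition to the block, the log2 fold change of Saa3 was 0.76 (unadjusted p = 0.00646 in edgeR), which meets the criterion. In the same fit Marcksl1 was at 0.28 (SE 0.06, unadjusted p = 0.00148, adjusted p = 0.0835), against 0.16 with the block alone, and Tnf was at 0.16 (SE 0.10, unadjusted p = 0.167), against 0.10. Neither reached the log2 fold change of 0.5 that the criterion asks for.

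Over the 10 members, 2 had IgG cultures that all lay above the control cultures, where 2.6% of the genes tested did. A higher value with IgG in all 4 pairs was found for Cd14, Cd40, Saa3 and Lcn2, and for 10.4% of the genes tested. None of the 4 genes with low counts met either description.

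Levels of different genes were compared per kilobase of exon, as RPKM from the scaled CPM. In control cultures the order was Cd14 at 355, Marcksl1 at 104, Saa3 at 61.6, Tnf at 10.7, Cd40 at 0.632, Lcn2 at 0.564, Il12b at 0.183, Il10 at 0.0737, Il6 at 0.0662 and Nos2 at 0.0643 RPKM. Cd40 and Lcn2 overlapped between cultures, as did Il10, Il6 and Nos2, each with its neighbour in the order, and the other neighbours were apart. Cd14 in control cultures was above 99.3% of the genes tested, Marcksl1 above 96.9%, Saa3 above 94.98% and Tnf above 72.5%, whereas Lcn2 was above 13.9%.

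With IgG the order differed at 2 places. Lcn2 at 1.35 RPKM was above Cd40 at 0.826, with no overlap between cultures, and Nos2 at 0.0947 stood above Il6 at 0.0438 RPKM but overlapped with it. Marcksl1 at 116 and Saa3 at 104 RPKM, which were apart in control cultures, overlapped with IgG, and so did Il12b at 0.262 and Il10 at 0.176 RPKM.

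**Figure D3:**
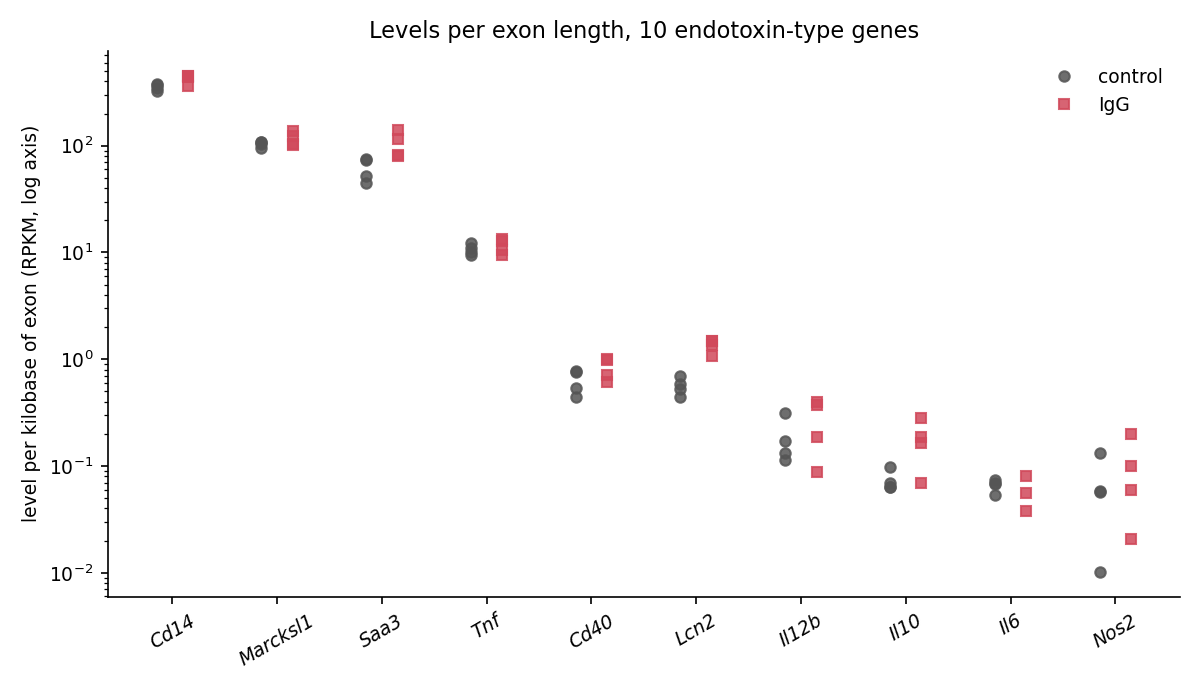
Level per kilobase of exon (RPKM, log axis) of the 10 genes in each of 4 control (circles) and 4 IgG cultures (squares). The genes span from 355 RPKM for Cd14 to 0.0643 RPKM for Nos2 in control cultures, and IgG culture 2 has no Il6 and is not drawn for that gene.

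The receptor complex and its signalling chain came from a list of 28 genes, which includes Cd14, and all 28 were tested. None met the criterion in the comparison of groups, and 1 did with the block (3.57%, beside 1.48% of all genes). The likelihood ratio test and DESeq2 each called 1 without the block. Leaving out 1 culture or pair gave 0 to 3 without the block, with 3 where IgG culture 4 was left out and 1 where control culture 1, IgG culture 2 or pair 4 was, and with the block it gave 0 without pair 1 or 3, 1 without pair 2 and 2 without pair 4. The median log2 fold change was 0.10, beside 0.00 over all genes, and it was -0.0031 when library totals replaced the scaling, which moved the median of all genes to -0.094. Tlr4 had a mean of 63.6 ± 6.82 CPM in the 4 control cultures and 80.2 ± 33.7 CPM (SD) in the 4 given IgG. Its log2 fold change was 0.33 (edgeR adjusted p = 0.742), and it was higher in 3 of 4 pairs. Within pairs 1 to 4 it changed by 0.66, 0.10, 0.63 and -0.47, and the list medians were 0.17, 0.10, 0.18 and -0.06. IgG cultures 1 and 3 are those with the high mitochondrial shares.

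Ly96, which encodes MD-2, had a log2 fold change of 0.45 (adjusted p = 0.692 in edgeR) and was higher in all 4 pairs. The adaptor genes Myd88 and Ticam1 had log2 fold changes of 0.12 and 0.31 and were also higher in all 4 pairs, below the criterion. Ly86, which encodes MD-1, the partner of the TLR4-like receptor CD180, met it with the block only (0.52, SE 0.10, adjusted p = 0.108).

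A list of 45 other genes that endotoxin induces mainly through NF-κB had 34 tested members. Of these, 7 rose by the criterion (20.6% of the list, beside 0.582% of all genes) and none fell, and with the block 9 rose (26.5%, beside 1.48%). The list was drawn up with earlier results of these samples known, so its share is not independent evidence. Its median log2 fold change was 0.24, and 0.14 with library totals. Leaving out 1 culture or pair gave 4 to 10 genes without the block, with 4 where control culture 4 or pair 3 was left out, and 8 to 9 with it.

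Of the genes on this list that met the criterion in either fit, the 4 with the highest change were Marco, Fpr2, Ccl7 and Cfb. Marco encodes a scavenger receptor for bacteria, and its log2 fold change was 1.47 (SE 0.19, edgeR adjusted p = 0.109, with the block 0.00912). Fpr2, a receptor for formylated peptides and serum amyloid A, changed by 1.40 (SE 0.29, adjusted p = 0.491, with the block 0.0145). Ccl7, a monocyte chemokine, changed by 1.35 (SE 0.64) and met the criterion with the block only, and complement factor B (Cfb) changed by 1.25 (SE 0.32, with the block adjusted p = 0.00956).

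The 4 lowest of those genes were Ebi3, Il1b, Acod1 and C3, and all were higher in the 4 pairs. Il1b, the inflammasome-dependent cytokine, had a mean of 29.9 ± 9.31 CPM in the 4 control cultures and 46.7 ± 12.3 CPM (SD) in the 4 given IgG. Its log2 fold change of 0.64 met the criterion with the block only (edgeR adjusted p = 0.0466). C3, the central complement component, changed by 0.99, Acod1, which makes itaconate, by 0.83 and Ebi3, a subunit of IL-27, by 0.64. The 11 genes of the list with too few counts included Csf2, Csf3, Cxcl1, Cxcl3, Lif, Il12a and Il23a.

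Feedback genes of the endotoxin response numbered 23, all tested. By the criterion 2 rose (8.70% of the list, beside 0.582% of all genes) and 1 fell (beside 0.262%), and with the block 3 rose (beside 1.48%) and none fell. Nfkbiz, which encodes the nuclear IκBζ, changed by 0.64 (SE 0.14, edgeR adjusted p = 0.574, with the block 0.0520), and Tnip3, an inhibitor of NF-κB signalling, by 0.64 (SE 0.18, adjusted p = 0.692). Il4ra, the IL-4 receptor chain, changed by 0.53 and, of the 2 quasi-likelihood fits, met the criterion only in that with the block. Socs1, an inhibitor of cytokine signalling, fell by 0.76 on the log2 scale (SE 0.24, unadjusted p = 0.00945, adjusted p = 0.692) and did not meet the criterion with the block (unadjusted p = 0.0206). Of the 23, 14 had a log2 fold change above 0, beside 50.7% of all genes tested. Besides Socs1, the others included Atf3 at -0.22, Zfp36 at -0.20, Nfkbie at -0.14 and Tnfaip3 at -0.10. The median of the list was 0.06, and -0.04 with library totals. Its genes meeting the criterion in either direction, 3 without the block, numbered 0 without pair 2, 5 without IgG culture 4, and 1 without control culture 2 or 3, IgG culture 1 or 3, or pair 1 or 3. With the block the 3 became 1 without pair 1, and 2 to 4 without any other pair.

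The receptors and partners of the members were 17 genes, of which 12 were tested and none met the criterion in either fit, where 0.582% of all genes were higher and 0.262% lower by it (1.48% and 0.342% with the block). With 12 genes, a count of 0 is near that share. The TNF receptors Tnfrsf1a and Tnfrsf1b had log2 fold changes of 0.11 and 0.03, and Adam17, the protease that sheds TNF, had 0.07. The IL-6 receptor chains Il6ra and Il6st had 0.12 and -0.02, and the IL-10 receptor chains Il10ra and Il10rb had 0.17 and 0.22. The adaptors Traf2 and Traf3 had 0.22 and 0.01, Slc22a17, a receptor for lipocalin 2, had -0.19, and Marcks, the close relative of Marcksl1, had 0.15.

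The other 5 of these genes were too low to be tested. Among them, Il12rb1 had 68 counts over all libraries, Il23a had 10, Il12a had 3, and Cd40lg, the ligand of CD40, had 0.

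The interferon-stimulated genes that endotoxin induces through TRIF were a list of 28, of which 26 were tested. By the criterion 2 rose (Cxcl9 and Ccl5, 7.69% of the list, beside 0.582% of all genes), and with the block 21 rose (80.8%, beside 1.48%) and none fell. Other fits without the block called 6 (likelihood ratio test), 4 (DESeq2) and 11 (no filter). Without the block the count was 0 when pair 2 was left out, 14 without pair 4, 16 without IgG culture 4, 4 without control culture 1, and 1 without control culture 2, 3 or 4, IgG culture 1 or 3, or pair 3, whereas with the block it was 19 to 22 whichever pair was left out. The median log2 fold change was 0.79, and 24 of the 26 were higher in all 4 pairs (92.3%, beside 10.4% of all genes). The exceptions were Irf1 (-0.08, higher in 2 pairs) and Cxcl10 (0.34, higher in 3 pairs). Ifnb1, which encodes interferon β, had 4 counts over all libraries and was not tested. The list medians within pairs 1 to 4 were 0.88, 0.60, 0.81 and 0.59. The higher ones belong to IgG cultures 1 and 3, which have the high mitochondrial shares. The study singled out interferon genes in these same samples, so their direction is not independent evidence.

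The 4 highest of those meeting the criterion in either fit were Cxcl9 at 1.68, Oasl1 at 1.39, Ifi205 at 1.37 and Ifit1 at 1.16 on the log2 scale. Among the lowest were Mx1 at 0.53, Igtp at 0.61 and Cmpk2 at 0.65. Cxcl9 and Igtp are known above all as targets of interferon γ, and Mx1, Ifit1 and Oasl1 as antiviral genes. Oasl1 averaged 3.12 ± 1.76 CPM in the 4 control cultures and 8.23 ± 5.21 CPM (SD) in the 4 given IgG, and its adjusted p was 0.692 without the block and 0.0145 with it (edgeR).

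**Figure D4:**
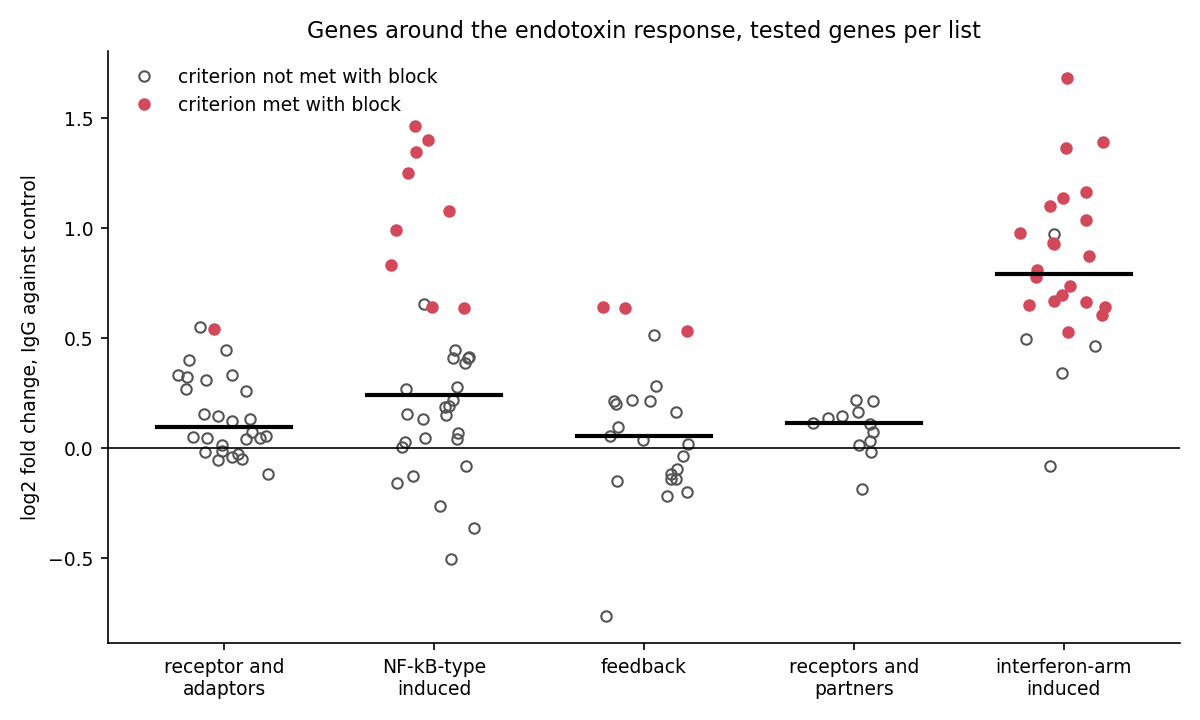
Log2 fold change of IgG against control in the comparison of groups, 1 point for each tested gene of 5 lists (28 receptor and signalling genes, 34 NF-κB-type, 23 feedback, 12 receptors and partners, 26 interferon-arm), with a bar at the median and filled points for genes that meet the criterion with the block. The interferon-arm list has its median at 0.79 and the receptor list at 0.10.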

How the data were processed

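Per the labels and the methods, poly(A) RNA of 8 cultures was sequenced. The authors deposited whole-number counts per Ensembl gene, with no normalization. The submitters' processing notes name HISAT2 2.2.1, SAMtools 1.12, Picard 2.26.3, featureCounts and edgeR 3.36.0. Counting settings and strand use are not given in the sources used here. Symbols came from GENCODE M21 (GRCm38), which held 55144 of the 55385 identifiers.

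Counts were scaled with TMM, filtered with filterByExpr (minimum count 10) and compared between groups in R 4.3.3 by the edgeR 4.0.16 quasi-likelihood method, group only, with Benjamini-Hochberg adjustment over all genes tested. The pairing comes from dates in the labels, whose meaning is not stated, and deviations of same-numbered cultures correlated at 0.256 to 0.408. Low genes were tested by exact permutation. Nothing beyond the dates says that cultures were independent, so p-values measure the spread between these samples. No 2 libraries of the same group agreed within sampling noise, and libraries of different groups were not compared in this way. Chi-square per degree of freedom, larger where counts differ more, was 5.00 to 17.6 between control libraries. Between IgG libraries it was 6.59 for 1 and 3, 26.9 for 2 and 4, and 65.3 to 121 for 1 or 3 against 2 or 4. Members, lists and the rule for named genes (every member and partner gene, Tlr4, Ly96, Myd88, Ticam1, and in each list the 4 highest and 4 lowest changes among genes meeting the criterion in either fit) were chosen with earlier results of these data known. Of the genes this rule names, 3 are not reported here. The scripts were tested on simulated data.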

Additional observations from a re-analysis of the deposited data

Results flagged for a closer look

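A single sample stood apart from the other 3 of its group, by Dixon's ratio, in 2 of 20 groups examined (10 genes in 2 groups), where chance alone gives about 1 in 20. Il10 in control culture 4 was at 0.129 CPM, which is 3 counts against 2 in each of the other controls. Cd14 in IgG culture 2 was at 629 CPM, below the other IgG cultures, which lay between 770 and 786 CPM.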

How the results depend on the processing

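The replicate block gave 320 genes by the criterion in place of 148 (260 higher in place of 102), 69 in place of 0 at an adjusted p under 0.05, and 1 member called in place of 2. The likelihood ratio test gave 255 (168 higher, 43 adjusted), and 528 with the block (347 higher, 327 adjusted). DESeq2 gave 53 adjusted, and with the block 350 (272 higher, 231 adjusted) and 1 member called. Library totals gave 60 higher genes and 82 lower, against 102 and 46, and 1 member called, and turned the median of the receptor list to -0.0031 and of the feedback list to -0.042, with the median of all genes at -0.094. With no filter there were 284 (208 higher, 4 adjusted), and with length and GC offsets and the block 340 (275 higher, 223 adjusted). In pairs 2 and 4 alone with the block, chosen after seeing the data, there were 327 (207 higher, 190 adjusted). Adjusted calls among the members were 0, but 1 under both likelihood ratio tests, both DESeq2 tests and the offsets with the block, and 2 in pairs 2 and 4 alone.

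Leaving out cultures or pairs without the block gave 56 to 610 genes (47 to 455 higher), 0 to 6 adjusted and 1 to 2 members called. Leaving out each pair of the paired fit gave 215 to 762 genes (190 to 427 higher; 326 and 245 without pair 2, 194 higher without pair 3) and 0 to 182 adjusted (14 without pair 1 and 16 without pair 3). Tnf ranged up to 0.22 and reversed to -0.039 without pair 4 (-0.046 with the block) and to -0.24 in pairs 1 and 3 alone, where Marcksl1 was -0.10. Saa3 lost its call in 12 of 30 alternatives, and Lcn2, Cd14 and Cd40 kept their direction and side of the criterion in all 30. Prior counts of 0.5 and 5 moved no pair difference by more than 0.094. The paired fit is given beside each of the 6 tested members. Why the counts moved was not tested. The counts of Il6, Il10 and Nos2 limit what depth can show, and sampling at 24 h only cannot show an earlier change of any member.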
